A study of Mus musculus with 13 samples.

Results

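The forkhead and Sox transcription factors were taken as every protein-coding mouse gene whose symbol is Fox with 1 letter and a number, or Sox with a number. The rule found 63 genes among 55487 in the count table, 44 of them forkhead and 19 Sox. Forkhead proteins bind DNA through a winged-helix domain, and their lettered classes range from regulators of metabolism (FoxO) to drivers of mitosis (FoxM). Sox proteins bind the minor groove through a high-mobility-group domain and bend the DNA. Their lettered groups are known from stem cells (SoxB), progenitors and the outflow tract (SoxC), cartilage and muscle (SoxD), neural crest and valve mesenchyme (SoxE) and endothelium (SoxF).

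Levels were compared between pacemaker cells (PC), the cells of the sinoatrial node that set the heartbeat, and right atrial cardiomyocytes (RACM), the neighbouring working muscle. All 6 RNA-seq libraries came from neonatal mice that carried both an Hcn4-GFP and a Myh6-mCherry reporter, and per the file headers PC were the red and green sort and RACM the red sort. Each library pooled the junction of node and right atrium of 8 to 10 hearts, and each cell type had 3 libraries, numbered p0, p2 and p4 in the titles. No age beyond neonatal is labelled, and the meaning of the p number is not given. Where 3 values of a cell type are listed, their order is p0, p2, p4. The 7 ATAC-seq samples of the series were not analysed here. Both sorts carried cardiomyocyte RNA: 10 markers summed to 112100 to 119800 CPM (gene counts scaled to library size) in PC and 74030 to 106000 CPM in RACM. Myh6, one of these markers, had its reporter in both sorts. All 10 pacemaker markers were higher in PC by the edgeR test, where they summed to between 6259 and 6369 CPM against 301.4 to 414.3 CPM, and Hcn4 among them had its reporter in the sort.

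RACM p4 stood apart in markers of other cells. Fibroblast markers summed to 1697, 3893 and 11330 CPM across the RACM libraries, against 882.2 to 2255 CPM in PC, with 2 of 10 called lower there. Macrophage markers reached 145.5, 412.2 and 700.2 CPM in the RACM libraries against 8.936 to 51.92 CPM in PC, with 8 of 10 lower in PC. Endothelial markers lay between 139.4 and 212.5 CPM in RACM and between 60.12 and 135.7 CPM in PC, with 1 of 10 lower in PC. No marker of these lists was at 0 in all libraries. In pooled cells, fewer cells of a type and less RNA per cell cannot be told apart.

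Most tested members of the families were not called, as was true of all genes tested. Of the 63 genes, 15 had 0 counts in all libraries, 20 had counts too low to test, and 28 were tested. By edgeR's quasi-likelihood test 3 of the 28 (10.7%) passed an adjusted p of 0.05, against 7.27% of all 18015 genes tested. Sox5 was higher in PC, and Sox4 and Foxc2 were lower. Among all genes 3.69% were called higher and 3.57% lower in PC. Of the 28, 8 had an unadjusted p under 0.05, against 3804 of all 18015 genes tested. That share of all genes also stands beside the edgeR counts of unadjusted p in the lists below. Libraries of PC and RACM did not overlap for 6 of the 28 (21.4%), a share below the 26.9% found over all genes tested. The median log2 fold change (PC minus RACM) was 0.1 over the 28 genes and 0.01 over all genes tested.

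**Figure D1:**
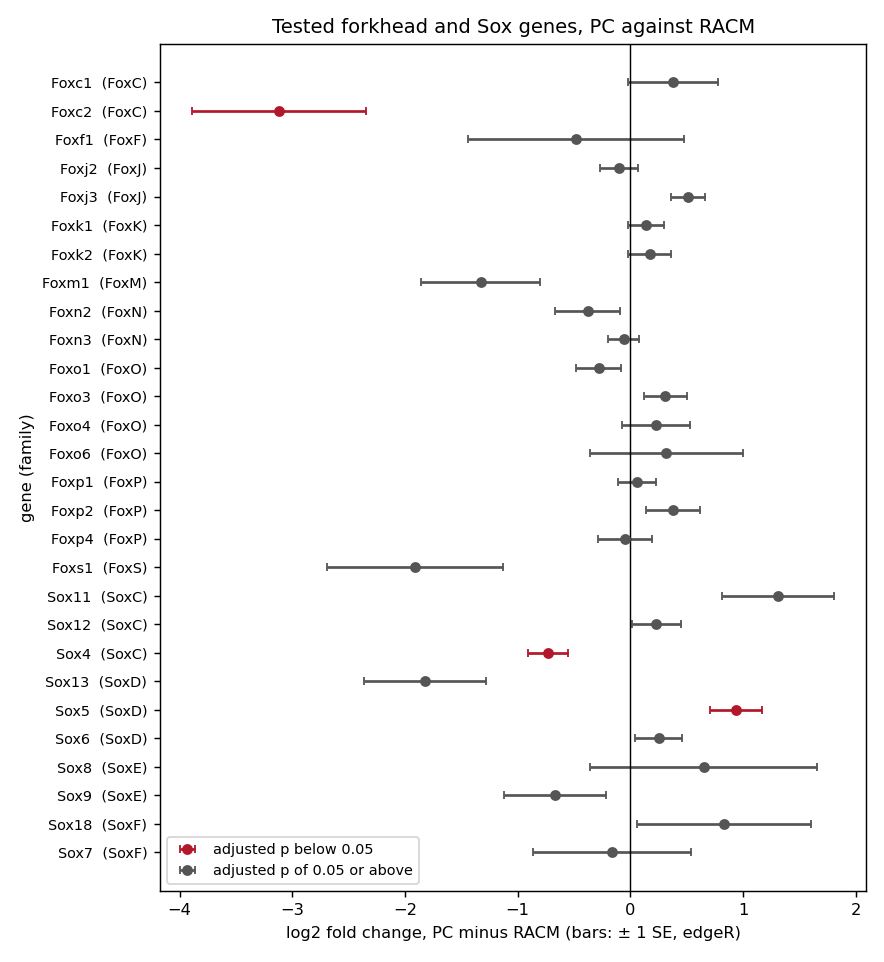
Log2 fold change, PC minus RACM, of the 28 tested genes with ± 1 SE from edgeR, listed by family. Red marks Foxc2, Sox4 and Sox5, with an adjusted p below 0.05, and Foxc2 lies farthest from 0, at -3.12.

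Each of these 3 calls depended on single libraries. The count of called family members was 0 without PC p0, RACM p0 or RACM p4. There 6 of 32, 7 of 31 and 5 of 31 tested members still had an unadjusted p under 0.05. Among all genes tested these counts were 3741 of 19340, 4058 of 19443 and 2960 of 18882. The count of called members was 1 without PC p2 (Sox4), PC p4 (Foxc2) or RACM p2 (Sox5). With the p number as a replicate block Sox13 was called as well (4 of 28, against 11.6% of all genes with the block). By DESeq2 both Sox13 and Foxj3 joined the 3 (5 of 28, against 12.8% of all genes by DESeq2).

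**Figure D2:**
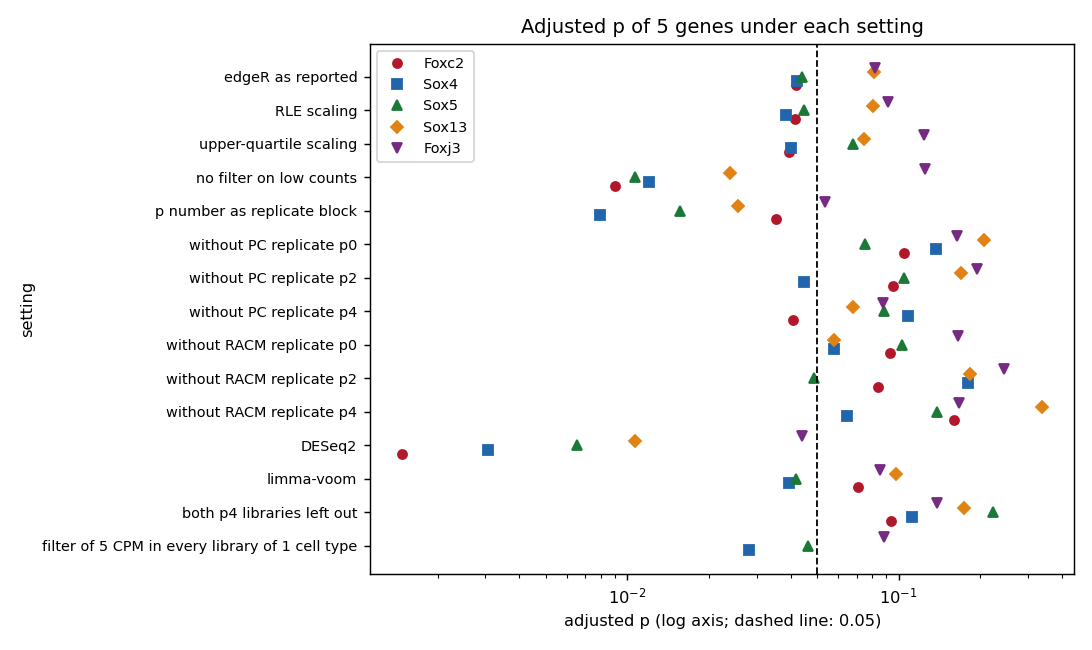
Adjusted p (log axis) of Foxc2, Sox4, Sox5, Sox13 and Foxj3 in the edgeR test as reported and under each alternative, with a dashed line at 0.05. The 3 called genes sit just left of the line, near 0.042 to 0.044, and move across it when single libraries are left out, while Foxc2 and Sox13 have no point at the filter of 5 CPM.

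The SoxC group held most Sox RNA. Its 3 genes (Sox4, Sox11 and Sox12) encode activators of progenitor cells, and Sox4 and Sox11 are needed for the cardiac outflow tract in mice. As CPM per kilobase of exon (RPKM), SoxC summed to 37.2 ± 4.14 (SD, n = 3) in PC and 54.2 ± 7.03 in RACM. That was 70.3% of the summed Sox level in PC and 76.4% in RACM. Across the PC libraries the group stood at 36.5, 41.6 and 33.5 RPKM, and in RACM at 51.3, 62.2 and 49.1 RPKM. Every RACM library lay above every PC library.

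Sox4 carried this group. It is a single gene of chromosome 13 (ENSMUSG00000076431, mm10, 28948919 to 28953713, minus strand), and none of its exon bases were shared with another gene. Its level was 121, 163 and 126 CPM across the PC libraries, and 211, 263 and 206 CPM in RACM. The lowest RACM library exceeded the highest PC library. The log2 fold change was -0.73 ± 0.18 (SE; edgeR adjusted p = 0.0423), a 1.66-fold lower level in PC. Per length Sox4 was the most abundant of all 63 genes, at 28.4 RPKM in PC and 47.3 RPKM in RACM, above 94.6% of genes tested when averaged over the 6 libraries. Leaving out any single library but PC p2 ended the call (adjusted p from 0.058 to 0.181). With both p4 libraries left out, where the fibroblast sums were highest, the log2 fold change was -0.77 (adjusted p = 0.112), and the part of other cells in the difference was not tested.

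Sox11 pointed the other way and did not pass. It was at 15.1, 8.94 and 6.38 CPM across the PC libraries, and at 3.45, 2.15 and 6.54 CPM in RACM, so that PC p4 and RACM p4 overlapped. The log2 fold change was 1.31 ± 0.50 (edgeR adjusted p = 0.167). Sox12 differed by less than its spread, at 33.5 ± 7.75 CPM for PC against 28.7 ± 4.45 CPM for RACM (log2 fold change 0.23 ± 0.22, adjusted p = 0.64). Within a library Sox4 exceeded Sox11 13.9, 31.6 and 34.2 times per length across the PC libraries, and 106, 212 and 54.7 times in RACM.

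The 250 bases before the RefSeq start sites of Sox4 and Sox11 (GRCm38.p6) are shown because these SoxC genes differ most in direction. Capitals mark CCAAT on either strand (read as ATTGG on the other). The windows are chr13:28953700-28953949 for Sox4 and chr12:27342719-27342968 for Sox11, both on the minus strand.
Sox4: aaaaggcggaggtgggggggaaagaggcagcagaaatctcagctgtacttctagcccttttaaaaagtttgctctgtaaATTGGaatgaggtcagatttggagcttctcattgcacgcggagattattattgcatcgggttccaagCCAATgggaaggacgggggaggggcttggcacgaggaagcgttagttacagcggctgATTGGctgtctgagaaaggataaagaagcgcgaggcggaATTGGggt
Sox11: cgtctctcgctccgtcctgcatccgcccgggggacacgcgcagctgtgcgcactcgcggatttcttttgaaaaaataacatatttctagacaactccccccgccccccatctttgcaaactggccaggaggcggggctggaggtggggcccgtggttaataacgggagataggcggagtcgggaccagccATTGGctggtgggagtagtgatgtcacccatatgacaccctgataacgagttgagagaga
The Sox4 window held 4 matches, at 171, 104, 47 and 8 bases before the start, and the Sox11 window held 1, at 60 bases. CCAAT was found in 33.8% of all 32851 windows of the same length, and in 23 of 51 windows of the 41 family genes in the table. Searched on both strands, neither window held the Sox motif AACAAT, which 9.42% of all windows held. The other Sox motif, ACAAAG, was absent from both too and was present in 16.5% of all windows. The forkhead motif TGTTTAC was likewise in neither and in 3.17% of all windows. No motif searched overlaps another in these windows, and a match is not a bound site.

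SoxD proteins (Sox5, Sox6 and Sox13) lack an activation domain of their own and act through partners, as in cartilage, where Sox5 and Sox6 work with Sox9. The group as a whole overlapped between the sorts, at 8.44 ± 1.41 RPKM in PC and 7.65 ± 0.536 RPKM in RACM, and 1 of its 3 members passed the test. Sox5 (ENSMUSG00000041540, chromosome 6 from 143828425 to 144781977, minus strand) stood at 30.9, 40.8 and 37.4 CPM across the PC libraries and at 16.2, 24.6 and 16.1 CPM in RACM. All PC libraries lay above all RACM libraries. The log2 fold change was 0.94 ± 0.23 (edgeR adjusted p = 0.0441), a 1.92-fold higher level in PC. The call was lost with upper-quartile scaling (adjusted p = 0.068) and when any single library but RACM p2 was left out (0.0755 to 0.139). It was kept at 0.0486 without RACM p2, and lost with both p4 libraries left out (0.79, adjusted p = 0.222). Neuron markers were also higher in PC, where 8 genes summed to 97.11 to 139.0 CPM against 8.323 to 12.57 CPM in RACM. Most of that sum was Uchl1 (134, 93.2 and 110 CPM in PC), the 1 called higher of 2 tested, while Chat had 1 count in all libraries together. The part of such cells in Sox5 and Sox11 was not tested.

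Reads were counted without strand, and 9.3% of the exon bases of Sox5 were shared with its antisense transcript Sox5os1. Sox5os1 had 2 counts in PC and 1 in RACM and was not tested. Of its own exon bases 83.9% were shared with Sox5, so these counts alone do not show how much antisense RNA there was. No other noncoding gene named after Sox5 passed. Sox5os2 had 80 counts in PC and 16 in RACM (log2 fold change 2.09, edgeR adjusted p = 0.141), and Sox5os4 had 71 and 35 (0.90, adjusted p = 0.496).

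Sox6, which restrains slow and fetal muscle genes in skeletal muscle, was the most abundant of the group per length. It was at 67.7, 98.4 and 74.3 CPM across the PC libraries and at 75.2, 73.6 and 53.0 CPM in RACM, with overlap (log2 fold change 0.25 ± 0.21, edgeR adjusted p = 0.559). Sox6 exceeded Sox5 per length 2.12, 2.34 and 1.92 times in the PC libraries and 4.51, 2.90 and 3.19 times in the RACM libraries. The ratio was thus smaller in every PC library than in any RACM library.

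Sox13 missed the threshold. It stood at 1.51, 1.75 and 3.31 CPM across the PC libraries and at 4.14, 6.64 and 12.5 CPM in RACM, with no overlap. The log2 fold change was -1.82 ± 0.54 (edgeR adjusted p = 0.0813), with -1.77 and an adjusted p of 0.0255 with the replicate block. It passed as well with no filter on low counts (0.024) and by DESeq2 (0.0107). Its highest level was in RACM p4, which was also highest in fibroblast and macrophage markers. Without that library the log2 fold change was -1.30 (adjusted p = 0.339), and the part of other cells in it was not tested.

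**Figure D3:**
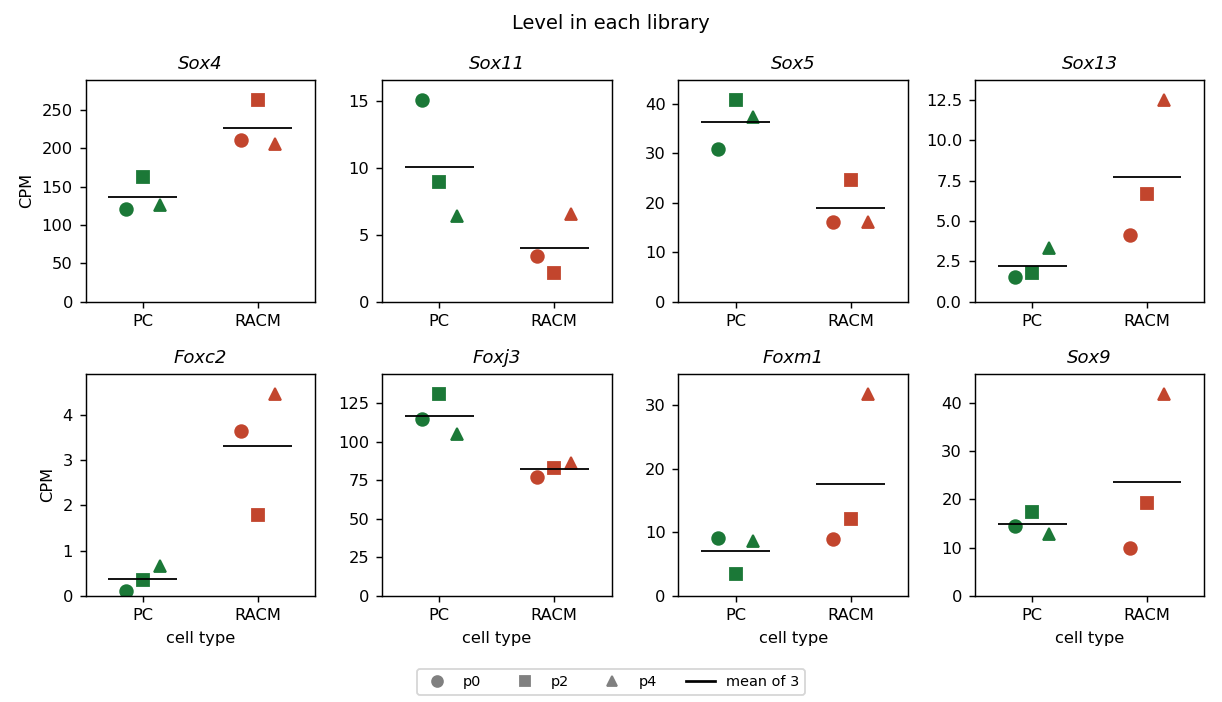
CPM of 8 genes in each library, with PC on the left and RACM on the right of each panel, symbols for the p number and a line at the mean of 3. Sox4, Sox5, Sox13, Foxc2 and Foxj3 show no overlap between the cell types, whereas Foxm1 and Sox9 are high in RACM p4 alone.

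Of SoxE, known from neural crest, glia and valve mesenchyme, Sox9 was the main gene. It was at 14.5, 17.4 and 12.8 CPM across the PC libraries, and at 9.81, 19.3 and 41.9 CPM in RACM. The PC values lay inside the RACM range (log2 fold change -0.67 ± 0.45, edgeR adjusted p = 0.459). Without RACM p4 the log2 fold change was 0.03. Fibroblast marker sums moved with Sox9 over the RACM libraries, at 1697, 3893 and 11330 CPM. Over the PC libraries they were 882.2, 995.0 and 2255 CPM, highest in p4, where Sox9 was lowest. The part of fibroblasts in the level of Sox9 was not tested. Sox8 did not exceed 2.29 CPM in any library. Sox10, a gene of Schwann cells, was not tested, with 2, 7 and 24 counts across the PC libraries and 0, 4 and 8 in RACM.

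SoxF genes act in endothelium, where Sox17, Sox18 and Sox7 overlap in function. Sox7 was at 2.51, 11.3 and 2.41 CPM across the PC libraries and at 6.91, 2.33 and 8.76 CPM in RACM, with no common order (log2 fold change -0.16 ± 0.70, edgeR adjusted p = 0.932). Sox18 lay between 1 and 1.98 CPM in PC and between 0.207 and 1.20 CPM in RACM (log2 fold change 0.83 ± 0.77, adjusted p = 0.609). Sox17 was not tested and had 4, 0 and 21 counts in PC and 0, 10 and 2 in RACM. Endothelial marker sums were higher in every RACM library than in any PC library, and the part of endothelial cells in these genes was not tested.

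Among the other Sox genes, Sox1, Sox2 and Sox14 had 0 counts in all libraries. Sox3 had 2 counts, in RACM p4 alone, and Sox21 had 5, in RACM p0 and p2. Sox15 had 0, 6 and 15 counts across the PC libraries and 4, 14 and 1 in RACM. Sox30, known from spermatogenesis, had 2, 7 and 1 counts in PC and 11, 7 and 17 in RACM. These genes were not tested.

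Summed forkhead RNA overlapped between the sorts, at 100 ± 1.62 RPKM in PC and 97.9 ± 2.34 RPKM in RACM. Summed Sox RNA was 52.9 ± 7.01 RPKM in PC and 70.9 ± 7.16 RPKM in RACM, and all RACM libraries (63.8 to 78.1) exceeded all PC libraries (48.4 to 60.9). These sums were not tested. FoxO, FoxJ, FoxN, FoxK and FoxP made up nearly all of the forkhead level.

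**Figure D4:**
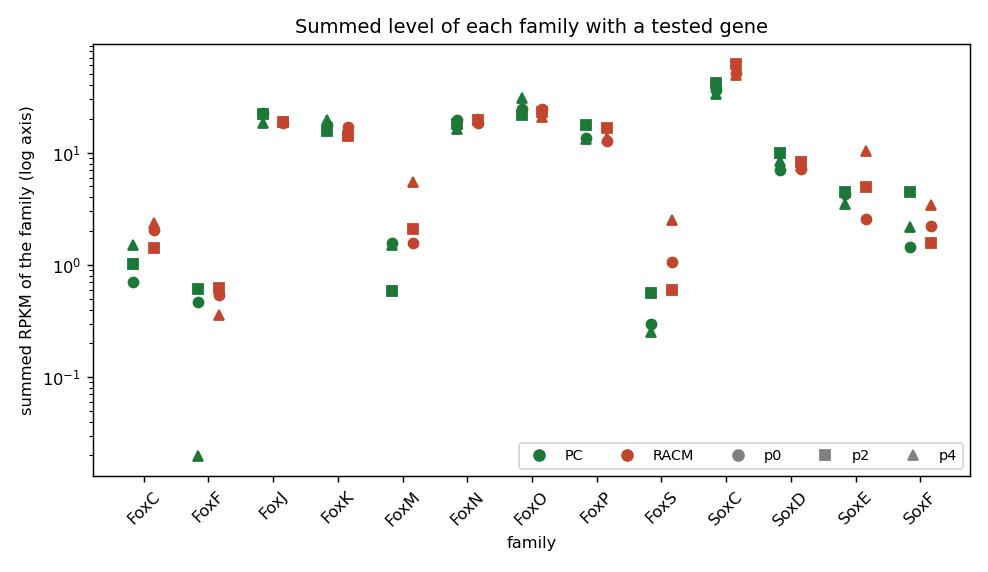
Summed RPKM (log axis) in each library for the 13 families with a tested gene, PC in green and RACM in red. SoxC lies highest, and FoxJ, FoxK, FoxN, FoxO and FoxP lie close together in both cell types, while FoxF is lowest in PC p4 at 0.0196.

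FoxO proteins are held in the cytoplasm by Akt signalling and turn on genes of atrophy, stress defence and arrest when released. The class summed to 25.7 ± 4.46 RPKM in PC and 22.9 ± 1.72 RPKM in RACM, and none of its 4 genes passed. Foxo3, its most abundant gene, was at 119, 109 and 143 CPM across the PC libraries and at 116, 105 and 78.8 CPM in RACM (log2 fold change 0.31 ± 0.19, edgeR adjusted p = 0.415). The libraries overlapped. Foxo1 was at 42.9 ± 5.85 CPM for PC against 52.1 ± 9.75 CPM for RACM (log2 fold change -0.28 ± 0.20, adjusted p = 0.479), and Foxo4 at 9.59 ± 1.49 and 8.16 ± 1.14 CPM. Foxo6 reached 9.21 CPM in PC p4 and lay between 1.36 and 4.01 CPM in the other libraries.

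Of 18 FoxO target genes 1 was higher and 1 lower in PC by edgeR, against 7.27% of all genes called. The median log2 fold change of the 18 was 0.00. Fbxo32, a muscle ubiquitin ligase of atrophy, was at 445, 341 and 255 CPM across the PC libraries and at 110, 114 and 62.4 CPM in RACM. All PC libraries were higher (log2 fold change 1.87 ± 0.28, edgeR adjusted p = 0.00586). Ccng2, a cyclin of arrested cells, went the other way, at 12 against 27.6 CPM (-1.21 ± 0.28, adjusted p = 0.0358). Its call was lost without PC p0, PC p4, RACM p0, RACM p2 or RACM p4 (0.0657 to 0.108) and with both p4 libraries left out (0.166). With the replicate block 5 of the 18 were called, against 11.6% of all genes in that fit. Beyond these genes they were Irs2, an insulin receptor substrate, Sod2, a mitochondrial superoxide dismutase, and Txnip, a thioredoxin inhibitor, which were looked up after their values were seen. Their levels were 110 against 65.4 CPM, 414 against 293 CPM and 221 against 377 CPM. None of 12 FoxO regulators passed edgeR, DESeq2 or limma-voom, while 2 had an unadjusted p under 0.05 by edgeR. Akt1, a kinase gene that restrains FoxO, was at 152 against 114 CPM (log2 fold change 0.41, edgeR adjusted p = 0.152).

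FoxJ genes in heart were Foxj2 and Foxj3, broadly expressed factors. Foxj3, which is known to promote Mef2c in muscle, was at 115, 131 and 105 CPM across the PC libraries and at 76.8, 83.2 and 85.9 CPM in RACM. The groups did not overlap, yet the gene missed the threshold (log2 fold change 0.51 ± 0.15, edgeR adjusted p = 0.0819) and passed by DESeq2 (0.0439). Foxj2 differed by less than its spread, at 54.8 ± 8.33 CPM for PC against 58.8 ± 1.27 CPM for RACM (log2 fold change -0.10 ± 0.17, adjusted p = 0.794). Foxj1, the master gene of motile cilia, had 14 counts in PC p2, 0 in the other PC libraries, and 7, 2 and 5 in RACM.

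None of the 6 tested genes of motile cilia, FOXJ1 targets of which 9 were in the table, passed edgeR or limma-voom, and 1 passed DESeq2. By edgeR 2 had an unadjusted p under 0.05. Tekt1, a filament gene of the axoneme, was at 3.57 against 0.659 CPM (log2 fold change 2.43 ± 0.80, edgeR adjusted p = 0.111, and 0.0489 with the replicate block). Rsph1, of the radial spoke, was at 1.45 against 0.347 CPM (adjusted p = 0.152).

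No FoxN or FoxK gene passed the test. Foxn3, a checkpoint-linked repressor and the forkhead gene of highest mean level per length (16.2 RPKM over the 6 libraries), was at 195, 187 and 165 CPM across the PC libraries and at 189, 191 and 188 CPM in RACM. Its log2 fold change was -0.06 ± 0.14 (edgeR adjusted p = 0.875). Foxn2 was at 15.8 ± 3.89 and 20.5 ± 5.68 CPM. Foxk1 and Foxk2, regulators of metabolism and autophagy, had log2 fold changes of 0.14 ± 0.16 and 0.17 ± 0.19. Foxk2 was at 52.1, 43.1 and 62.0 CPM in the PC libraries and at 47.3, 41.6 and 50.7 CPM in the RACM libraries.

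FoxP proteins are repressors that act as dimers, and Foxp1 and Foxp4 take part in heart development. None of the 3 tested genes passed. Foxp4, the highest per length, was at 23.7, 42.5 and 31.7 CPM across the PC libraries and at 31.1, 40.0 and 30.3 CPM in RACM. In both cell types p2 was the highest library. Its log2 fold change was -0.05 ± 0.24 (edgeR adjusted p = 0.938). Foxp1 was at 80.0 ± 10.2 and 76.8 ± 9.58 CPM. Foxp2, known from speech circuits, was at 38.3 ± 10.6 CPM for PC against 29.3 ± 4.50 CPM for RACM (log2 fold change 0.38 ± 0.24, adjusted p = 0.423). Foxp3, the factor of regulatory T cells, had 1, 10 and 0 counts across the PC libraries and 2, 9 and 3 in RACM. Of its exon bases 31.5% were shared with other genes. T cell markers summed to 2.509, 0.4525 and 5.811 CPM across the PC libraries and to 4.421, 5.085 and 49.36 CPM in RACM. The part of T cells in the counts of Foxp3 was not tested.

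The 10 corepressors and partners of FoxP had a median log2 fold change of -0.19. By edgeR 1 was lower in PC and none higher, against 7.27% of all genes called. It was Nkx2-5, the cardiac homeobox factor, at 12.7, 13.4 and 11.6 CPM across the PC libraries and at 50.9, 29.7 and 21.9 CPM in RACM (log2 fold change -1.44 ± 0.31, edgeR adjusted p = 0.025). Leaving out any single library but RACM p4 ended this call (0.0523 to 0.0913). Ctbp2, a corepressor, was at 18 against 22.7 CPM (adjusted p = 0.417).

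Of the FoxC genes, which pattern the outflow tract, vessels and lymphatics, 1 of 2 passed the test. Foxc2 (ENSMUSG00000046714, chromosome 8 from 121116171 to 121118895, plus strand, with no shared exon bases) had 2, 6 and 14 counts across the PC libraries and 53, 30 and 93 in RACM. These were 0.111, 0.339 and 0.661 CPM against 3.66, 1.79 and 4.47 CPM. All RACM libraries lay above all PC libraries. The log2 fold change was -3.12 ± 0.77 (edgeR adjusted p = 0.0419), and the summed counts gave a RACM over PC ratio of 8.74 (95% exact binomial interval from 5.59 to 14.3, counting error only). The call was kept without PC p4, where the log2 fold change was -3.84, and lost without each of the other libraries (adjusted p from 0.0842 to 0.16, with -2.70 without PC p0) and by limma-voom (0.071). With both p4 libraries left out the log2 fold change was -3.57 (0.0939).

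Foxc1 did not pass. It was at 3.90, 5.20 and 7.42 CPM across the PC libraries and at 4.14, 4.31 and 4.28 CPM in RACM (log2 fold change 0.38 ± 0.40, edgeR adjusted p = 0.668). Per length Foxc1 exceeded Foxc2 16.3, 7.15 and 5.23 times across the PC libraries. In RACM the ratio was 0.528, 1.12 and 0.446, below every PC library, and this was not tested. Foxc2 counts were low throughout, and 3 counts correspond to 0.142 to 0.207 CPM in these libraries. Endothelial markers were at 140.0, 139.4 and 212.5 CPM across the RACM libraries, where Foxc2 was lowest in p2, and their part in the difference was not tested.

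Foxc1 and Foxc2 each belong to a small gene cluster. On chromosome 8 Foxf1 lies 28.0 kb before Foxc2, and Foxl1 lies 9.04 kb after it. Foxf1, a Hedgehog target of visceral mesenchyme, had 20, 26 and 1 counts across the PC libraries and 19, 25 and 18 in RACM (log2 fold change -0.48 ± 0.96, edgeR adjusted p = 0.834). Without PC p4 that value was 0.09. Foxl1 had 0 counts in PC and 0, 10 and 2 in RACM, and was not tested. On chromosome 13 Foxq1, Foxf2 and Foxc1 follow each other with gaps of 64.8 and 175 kb, and of these only Foxc1 had any count.

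Of 12 tested genes of the Hedgehog pathway, which controls several FoxC and FoxF genes elsewhere, 1 was higher and 1 lower in PC, against 7.27% of all genes called (median log2 fold change 0.03). Of the ligand genes, Shh had 0 counts and Ihh 25 in PC and 2 in RACM. The ligand gene Dhh had 16, 132 and 13 counts across the PC libraries and 0, 8 and 4 in RACM, with no overlap, and shared 25.2% of its exon bases with other genes (log2 fold change 3.68 ± 1.29, edgeR adjusted p = 0.128). Boc, a coreceptor of Hedgehog ligands, was at 96.4, 141 and 126 CPM across the PC libraries and at 11.7, 9.75 and 6.64 CPM in RACM. Its PC libraries were all higher (3.69 ± 0.26 on the log2 scale, edgeR adjusted p = 1.03e-04), and Boc was called under all 14 alternatives. Gas1, another coreceptor, was at 13.3 against 30.4 CPM (-1.20 ± 0.30, adjusted p = 0.0427), and shared 19.9% of exon bases with the gene Gm48488. Leaving out any single library but RACM p0 ended the call (0.0625 to 0.149), as did leaving out both p4 libraries (0.11) and limma-voom (0.0603). Cdon, a coreceptor related to Boc, was at 164, 196 and 111 CPM across the PC libraries and at 72.8, 106 and 66.9 CPM in RACM. It missed the threshold without overlap (0.94 ± 0.25, adjusted p = 0.057), and it was called with the replicate block, where the list had 2 genes higher and 1 lower, by DESeq2, with no filter on low counts and without PC p4. Dhh was called by DESeq2 and with no filter. Gli3, of the same list, was called lower in PC only with no filter and without RACM p0. Ihh, Dhh, Cdon and Gli3 were looked up after their values were seen.

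Foxm1 and Foxs1 were higher in RACM p4 than in any other library. Foxm1, which drives mitotic genes, was at 9.03, 3.39 and 8.60 CPM across the PC libraries and at 8.98, 12.1 and 31.8 CPM in RACM. PC p0 exceeded RACM p0. The log2 fold change was -1.33 ± 0.53 (edgeR adjusted p = 0.188), and -0.59 without RACM p4. It passed only with no filter on low counts (0.0293). FoxM1 target genes summed to 132.8, 105.6 and 265.0 CPM across the PC libraries and to 112.4, 100.0 and 336.6 CPM in RACM, so that p4 was highest in both. None of these 12 targets passed edgeR or limma-voom, 1 passed DESeq2, and 2 had an unadjusted p under 0.05 by edgeR. Cenpa, a centromeric histone, was at 62.0 against 28.5 CPM (log2 fold change 1.12 ± 0.37, adjusted p = 0.113, and 0.00627 with the replicate block and 0.0218 without RACM p4). Nek2, a centrosomal kinase, was at 3.19 against 9.25 CPM (-1.54, adjusted p = 0.196), with 5.39, 3.59 and 18.8 CPM across the RACM libraries, and at -0.49 without RACM p4.

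Foxs1, a gene of pericytes and neural crest derivatives, was at 0.390, 0.735 and 0.331 CPM across the PC libraries and at 1.38, 0.778 and 3.32 CPM in RACM. The groups did not overlap, by a narrow margin between PC p2 and RACM p2 (log2 fold change -1.91 ± 0.78, edgeR adjusted p = 0.195). Summed counts gave a RACM over PC ratio of 4.13 (95% exact binomial interval from 2.68 to 6.56), an interval that covers counting error only and not the spread between libraries. Without RACM p4 the log2 fold change was -1.14. Smooth muscle and pericyte markers summed to 133.8 to 195.7 CPM in PC and to 239.3, 306.5 and 446.2 CPM across the RACM libraries, with 3 of the 9 tested called higher and 3 lower in PC. Their part in the level of Foxs1 was not tested.

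Further forkhead genes were at or near 0. No count was found for Foxa2, FoxB (2 genes), Foxd4, Foxe3, Foxf2, Foxh1, FoxI (3 genes), Foxq1 and Foxr2. In each library 0 counts allow a level of up to 0.142 to 0.207 CPM, taking 3 counts as the limit. Foxa3 had 1 count in PC p0 and 1 in RACM p4, and Foxr1 1 count in PC p2. Foxd1 had 7 counts in RACM p4 and 1 in PC p0. Foxe1 had 1 count, in RACM p2. The untested genes Foxa1, Foxd2, Foxd3, Foxl2, Foxn1 and Foxn4, had at most 6 counts in a library.

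Counts in the lists tied to Sox proteins stand beside 7.27% of all genes called by edgeR, and each list had 4 to 6 tested genes. Of 6 TCF, LEF and beta-catenin genes, which many Sox proteins bind or oppose, 1 was lower and none higher in PC (median log2 fold change -0.04). Tcf7l2, a DNA-binding partner of beta-catenin, was at 77.5, 92.0 and 68.8 CPM across the PC libraries and at 144, 176 and 146 CPM in RACM. All RACM libraries were higher (log2 fold change -0.97 ± 0.17, edgeR adjusted p = 0.0118), and the call was lost without PC p0 or RACM p2 (0.0578 and 0.0644). Axin2, a feedback target, was at 19.6 against 7.74 CPM (1.34 ± 0.36, adjusted p = 0.0582, and 0.0107 with the replicate block and 0.0333 without PC p4).

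Cartilage genes that Sox5, Sox6 and Sox9 drive were low, and 4 of 10 were tested, with 1 lower in PC and a median log2 fold change of -0.73. That gene, Comp, a matrix protein, had 6 counts in PC and 68 in RACM (log2 fold change -3.56 ± 0.92, edgeR adjusted p = 0.0461). The value moved to -4.53 without PC p2. The call was lost when any single library was left out (0.0557 to 0.218), with both p4 libraries left out (0.141), with no filter on low counts (0.0572) and by limma-voom (0.0963). Col11a2, a collagen chain, was at 1.75 against 2.75 CPM (adjusted p = 0.572). None of 6 slow and fetal muscle genes passed edgeR or limma-voom. In that list 1 passed DESeq2, and 1 had an unadjusted p under 0.05 by edgeR. Its genes of smallest p were Myl3, a ventricular and slow light chain (164 against 290 CPM, log2 fold change -0.82 ± 0.27, adjusted p = 0.111, 0.0428 with the replicate block and 0.0413 without PC p4), and Tnnc1, troponin C (1540 against 1250 CPM, adjusted p = 0.382).

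Of 6 tested glial targets of SoxE, 1 was lower in PC and none higher (median log2 fold change -0.21). Mbp, myelin basic protein, whose locus is also active outside glia, was at 12.8, 10.7 and 11 CPM across the PC libraries and at 56.1, 57.8 and 37.4 CPM in RACM. Its PC libraries were all lower (-2.13 ± 0.23 on the log2 scale, edgeR adjusted p = 0.001), and Mbp was called under all 14 alternatives. Fabp7, a fatty acid binding protein of glia, was at 0.771 against 4.08 CPM (adjusted p = 0.223). Schwann cell markers, all of which stand in this list too, summed to 28.00 to 28.26 CPM in PC and to 59.47 to 79.29 CPM in RACM, and Mbp made up most of the RACM sum.

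Of 4 tested endothelial targets of Sox17 and Sox18, 1 was higher and none lower in PC (median log2 fold change -0.12), and Mmp7 had 0 counts. Efnb2, an ephrin ligand of arteries, was at 98.6, 121 and 88.5 CPM across the PC libraries and at 8.98, 11.1 and 9.77 CPM in RACM. Its log2 fold change was 3.37 ± 0.20 (edgeR adjusted p = 3.76e-05), and it was called under all 14 alternatives. Endothelial marker sums were higher in RACM, and the part of endothelial cells in the level of Efnb2 was not tested. Vcam1, an adhesion molecule, was at 89.9 against 121 CPM (adjusted p = 0.241).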

How the data were processed

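The deposited values are raw counts of fragments per gene. Per the file headers, featureCounts 2.0.1 made them from paired alignments, summing exons of mm10 genes, with neither a strand option nor an option for reads that map to several places. Per the submitters' processing notes, Trimmomatic, HISAT2 and edgeR were also used, with no version given. Per the labels' protocols, RNA was amplified with the Ovation V2 kit and read as paired 100-bp ends. Exon lengths are the authors' own column.

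Total counts per library ran from 14141151 to 22290996, and 55141 of 55487 gene IDs had a symbol. The 18015 genes that passed filterByExpr (grouped by cell type, with 10 and 15 as its count and total minimum) entered TMM scaling and the test of edgeR 4.0.16 in R 4.3.3 (quasi-likelihood, 2-sided, Benjamini-Hochberg, threshold 0.05). An SE is the absolute log2 fold change of a fit without edgeR's prior count, divided by the root of F. The edgeR log2 fold changes printed kept that prior count. CPM used TMM-scaled library sizes, and RPKM is CPM per exon kilobase. An exact permutation test of 3 against 3 cannot fall below 0.1, so none is given. The other settings were RLE scaling, upper-quartile scaling, no filter, a filter of 5 CPM, the replicate block, single libraries left out, DESeq2 1.42.0 and limma-voom (limma 3.58.1). Leaving out both p4 libraries was chosen after seeing the data.

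Same-numbered libraries deviated together from the means of their cell types (r across genes 0.196 for p0, 0.278 for p2 and 0.266 for p4). The p numbers were therefore taken to pair libraries in the replicate block alone. The edgeR test as reported used cell type only and ignored this pairing. With the block 4 members and 2082 genes were called, against 3 and 1309 as reported. No label states this pairing. Where libraries share a source, p-values measure only the spread between these samples.

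Data were simulated for this comparison (18015 genes, 50 changed per size, drawn from genes with a mean of 1 CPM or more). There edgeR recovered 28% of 2-fold, 60% of 4-fold and 80% of 8-fold changes, with 7 false calls. DESeq2 made 38 false calls in the same data, edgeR with the replicate block 17 and limma-voom 6. Members and lists were chosen with earlier results of these data known. The rule named members that were called, members without overlap and with 1 CPM or more in the higher sort, and the highest per length of each family. It named 2 genes of smallest p per list, plus a called gene of opposite sign if any. Other members were added after their values were seen. Some items that the rule names are not reported here. The marker list not described in the results was epicardium (12.99 to 91.56 CPM in RACM, 2.715 to 12.42 in PC). Promoter sequences came from RefSeq (GRCm38.p6).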

Additional observations from a re-analysis of the deposited data

How the results depend on the processing

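Of 28 tested members, 20 kept the sign of their difference under all 14 alternatives that gave a value, and 22 were called under none. The exceptions in sign were Foxf1, Foxn3, Foxo6, Foxp1, Foxp4, Sox7, Sox8 and Sox9, none of them called. The count of called members, 3 of 28 tested as reported, was 5 of 48 with no filter on low counts and 5 of 28 by DESeq2. It was 0 of 28 with both p4 libraries left out. When single libraries were left out it ranged from 0 to 1, with 29 to 32 members tested. With the p number as replicate block it was 4. For all genes the count, 1309 of 18015 tested as reported, was 2339 of 33066 with no filter. It was 2082 with the replicate block, 2304 by DESeq2 and 734 with both p4 libraries left out. Without single libraries it ran from 511 to 1338. The block added Sox13 and, among list genes named, Axin2, Cenpa, Myl3, Tekt1, Irs2, Sod2, Txnip and Cdon. It removed no call of a named gene. RLE and upper-quartile scaling shifted the median log2 fold change of all genes by -0.01 and -0.05. Under the filter of 5 CPM, 9 tested members, Foxc2 and Sox13 among them, gave no value. Why calls moved was not tested, beyond the smaller number of libraries where some were left out. At this depth genes under about 1 CPM rest on a few counts per library, and a 2-fold difference would often be missed.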
